A study of Mus musculus with 4 samples.

Results

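The 48 genes described here encode enzymes that add methyl groups to histone lysines or remove them, with some close relatives of unsettled substrate or activity. They were taken by name from a list of 30 methyltransferase genes (called writers below) and 18 demethylase genes (erasers), out of 21887 protein-coding genes on mouse chromosomes 1 to 19, X and Y. The measurement was ChIP-seq of INO80, the ATPase of a nucleosome remodelling complex, in spermatocytes at early zygotene, when homologous chromosomes begin to pair. There were 2 INO80 ChIP libraries and 2 input libraries. All of them came from F1 mice of the strains DBA/2J and C57BL/6J, with no mutant or transgenic allele named. From 2 dpp (days post partum) every animal had received fertilysin for 7 days, an inhibitor that stops germ cells at the spermatogonial stage, and at 9 dpp retinoic acid, which starts their synchronous development. Testes were taken 8 days after retinoic acid, and spermatocytes were enriched on 28% Percoll, so other testis cells can remain in the preparation. The labels do not give the number of animals behind each library, and the spread between replicates may be partly technical.

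Uniquely mapped reads (in M, rounded by the authors) numbered 98.1 and 82.6 in INO80 replicates 1 and 2, and 70.4 and 39.6 in the inputs. The replicates' own peak lists held 5123 and 7836 regions, with median folds of 3.23 and 3.59. Fold is the enrichment at a peak as the authors' peak caller wrote it. The labels' protocols name an adaptase library kit for the INO80 libraries and not for the inputs, and its part in the folds was not tested. The authors also deposited 2847 peaks that passed an irreproducible discovery rate (IDR) limit over both replicates, called reproducible peaks below, each with the gene of the nearest transcription start site (TSS). Such a peak was centred within 1 kb of the TSS at 9.93% of all protein-coding genes. Of the marker genes listed for cell types, it was found at 0 of 7 spermatocyte genes, 4 of 7 spermatogonial genes (Kit, Ret, Zbtb16 and Dmrt1), 3 of 6 Sertoli cell genes (Kitl, Sox9 and Wt1) and 0 of 4 Leydig cell genes. A peak at a gene is not its expression, so these counts do not check the labelled cell type, and which cells of the preparation gave each peak was not tested.

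Methylation of histone H3 marks chromatin states. Lysine 4 (H3K4) is methylated at promoters and enhancers, H3K36 and H3K79 over transcribed genes, and H3K9 and H3K27 in silenced chromatin. Writers carry a SET domain, except Dot1l, and erasers use either a flavin-dependent oxidase domain (Kdm1a and Kdm1b) or a JmjC domain. In male germ cells, H3K9 methylation by the G9a and Suv39h enzymes is known to be needed for meiotic prophase in mice, and H3K4 methylation marks the sites where meiotic recombination begins.

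A reproducible INO80 peak was centred within 1 kb of the TSS of 6 of the 48 genes (12.5%), against 9.93% of all protein-coding genes. They were 5 of 30 writers (16.7%), namely Setd7, Suv39h2, Ehmt1, Setd3 and Smyd2, and 1 of 18 erasers (5.56%), Jmjd1c. At Setd3 and Smyd2 the best-known substrates of the enzyme are not histones, since Setd3 methylates a histidine of actin and Smyd2 methylates p53 among others. The writers assigned to a single histone residue had 3 of 19 such peaks. These are counts over single genes, and no test of writers against erasers was run.

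The 250 bases before the start are shown for 5 of these 6 promoters. They are then shown for 2 members without a peak at the start, the CpG-rich Kdm7a and the CpG-poor Smyd1. The sequences are RefSeq's for build GRCm38.p6, written 5′ to 3′ on the strand of the gene. Capitals mark matches on either strand to the GC box GGGCGG of Sp and Klf factors, the CCAAT box, the YY1 core AANATGGC, the E-box CACGTG, the cyclic AMP element TGACGTCA, the TATA box TATAAA and the palindromic NRF1 site. The windows lie at chr2:3474987-3475236 (Suv39h2, minus strand), chr2:24919610-24919859 (Ehmt1, minus), chr3:51560824-51561073 (Setd7, minus), chr12:108179285-108179534 (Setd3, minus), chr10:67126838-67127087 (Jmjd1c, plus), chr6:39206774-39207023 (Kdm7a, minus) and chr6:71262282-71262531 (Smyd1, minus).
Suv39h2: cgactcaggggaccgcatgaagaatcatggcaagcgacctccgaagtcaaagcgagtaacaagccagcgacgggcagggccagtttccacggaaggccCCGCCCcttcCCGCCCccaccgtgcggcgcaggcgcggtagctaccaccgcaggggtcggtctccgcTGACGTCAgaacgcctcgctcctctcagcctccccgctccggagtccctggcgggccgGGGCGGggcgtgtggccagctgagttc
Ehmt1: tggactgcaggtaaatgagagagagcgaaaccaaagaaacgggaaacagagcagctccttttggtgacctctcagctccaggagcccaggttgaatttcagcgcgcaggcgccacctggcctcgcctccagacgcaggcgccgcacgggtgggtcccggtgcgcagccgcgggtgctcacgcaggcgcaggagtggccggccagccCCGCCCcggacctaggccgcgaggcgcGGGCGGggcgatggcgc
Setd7: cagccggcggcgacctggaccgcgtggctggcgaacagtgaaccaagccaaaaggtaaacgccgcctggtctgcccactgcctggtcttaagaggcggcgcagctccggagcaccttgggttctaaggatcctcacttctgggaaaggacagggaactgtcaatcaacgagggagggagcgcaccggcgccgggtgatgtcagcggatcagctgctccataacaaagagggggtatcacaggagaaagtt
Setd3: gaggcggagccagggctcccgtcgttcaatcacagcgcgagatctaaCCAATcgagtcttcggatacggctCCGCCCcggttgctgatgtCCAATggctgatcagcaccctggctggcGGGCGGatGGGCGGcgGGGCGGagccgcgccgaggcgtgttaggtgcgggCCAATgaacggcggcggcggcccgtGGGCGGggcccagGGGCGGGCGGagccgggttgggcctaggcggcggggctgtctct
Jmjd1c: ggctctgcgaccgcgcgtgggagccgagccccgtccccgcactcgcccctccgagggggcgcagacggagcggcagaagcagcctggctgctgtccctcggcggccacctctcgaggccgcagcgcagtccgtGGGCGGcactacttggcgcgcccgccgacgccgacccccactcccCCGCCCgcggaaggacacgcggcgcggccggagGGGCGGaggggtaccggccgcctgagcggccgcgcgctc
Kdm7a: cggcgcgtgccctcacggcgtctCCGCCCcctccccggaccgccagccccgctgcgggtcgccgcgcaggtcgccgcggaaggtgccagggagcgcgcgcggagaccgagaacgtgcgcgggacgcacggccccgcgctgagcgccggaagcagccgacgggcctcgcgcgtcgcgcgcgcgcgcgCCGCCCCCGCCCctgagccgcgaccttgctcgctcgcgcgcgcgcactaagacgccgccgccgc
Smyd1: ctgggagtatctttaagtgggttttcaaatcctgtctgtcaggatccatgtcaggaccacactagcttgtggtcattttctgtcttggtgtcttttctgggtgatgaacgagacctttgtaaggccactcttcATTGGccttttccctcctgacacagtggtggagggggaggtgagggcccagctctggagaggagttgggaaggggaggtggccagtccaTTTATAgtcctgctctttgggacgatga

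In these windows Setd3 held 7 GC boxes and 3 CCAAT boxes, and Suv39h2 held 3 GC boxes and 1 cyclic AMP element. Ehmt1 held 2 GC boxes and Jmjd1c held 3. Setd7 held no match to any of the 7 motifs, which says only that these letters are absent from its window. Kdm7a, without a peak, held 3 GC boxes and 56 CpG dinucleotides. This was more CpG than in any of the 5 windows shown from occupied genes, which held 17 to 40. The windows were set by the gene start, and not all of them lay under the replicates' peaks. Smyd1, a gene of heart and skeletal muscle, held 2 CpG, 1 CCAAT box and 1 TATA box.

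Among the H3K9 writers, Suv39h2, which makes trimethylated H3K9 in heterochromatin and is known as a testis-enriched enzyme, had folds of 3.92 in replicate 1 and 3.72 in replicate 2. Its reproducible peak spanned chromosome 2, 3474055 to 3475102, was centred 408 bp inside the gene and was classed by the authors as intron 1 with a CpG island. It was 1 of 84 among 2289 promoter peaks (3.67%) whose fold was higher in replicate 1. The authors' deposited table of selected genes near peaks lists Suv39h2 under chromatin remodelling, and no other member of the 48. Ehmt1, the GLP enzyme that pairs with G9a to mono- and dimethylate H3K9, had folds of 3.18 and 3.80 at chromosome 2, 24918834 to 24919644, centred 370 bp inside the gene in intron 1. Both peaks of the replicates began inside the gene, 71 and 167 bp past the start, so the sequence before the Ehmt1 start printed above lay outside them.

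Their paralogues differed in position or had no peak. Suv39h1, on the X chromosome, had no peak within 1 kb of a start in either replicate's own list. Ehmt2, which encodes G9a, had peaks in both lists with folds of 2.96 and 3.21, but their nearest edges lay 3395 and 3094 bp upstream of the start. Setdb1, which silences retroelements in germ cells, and Setdb2 had none. Of the 6 H3K9 writers, then, 2 had a peak at the start in both lists and 4 in neither. The 6 other SET-domain proteins divided in the same way, and 18.9% of all genes had a peak in both lists.

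Among the 7 H3K4 writers, Setd7, which monomethylates H3K4 and several other proteins, was the 1 gene with a reproducible peak. Its folds were 2.91 in replicate 1 and 4.41 in replicate 2, at chromosome 3, 51559779 to 51561778, with the centre 45 bp inside the gene. The replicates differed most here among the 6 genes, with a fold 1.51 times as high in replicate 2, and the replicate 1 value stood 2239th of 2289 promoter peaks. Kmt2a, the MLL1 enzyme that maintains Hox gene expression, had folds of 2.84 and 3.13 in the replicates' own lists. Kmt2b, which makes H3K4 trimethylation in germ cells, had folds of 2.78 and 3.11. Neither is in the reproducible set. Kmt2d (2.51) and Setd1b (2.42) had a peak in replicate 2 alone, and Kmt2c and Setd1a, an enhancer and a promoter enzyme, had none.

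The H3K36 writers carried no reproducible peak assigned within 1 kb, although 2 of their 5 gene ends lay inside one. Ash1l, a dimethylase that counters Polycomb silencing, had folds of 4.26 and 4.91 at chromosome 3, 88949671 to 88951306. This peak covers 1 end of the Ash1l gene and was named by the authors for Dap3, whose TSS lay 45 bp from the centre. Nsd2, which sets the genome's level of H3K36 dimethylation in many cells, had folds of 3.55 and 4.07 at chromosome 5, 33819707 to 33821581. The authors' table places this Nsd2 peak between genes, at -22468 bp from a Nsd2 TSS (upstream), whereas the RefSeq gene begins at 33820676, inside the peak. Nsd1 had folds of 3.62 and 3.30 in the replicates' own lists, higher in replicate 1, and Nsd3 had 2.41 in replicate 2 alone. Setd2, which makes H3K36 trimethylation during transcription, had none, nor did Dot1l, the H3K79 enzyme, at its start.

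Among the 6 other SET-domain proteins, Setd3 had the highest fold in replicate 2 of the 6 occupied genes. Its values were 3.85 and 4.96 at chromosome 12, 108177705 to 108180106, centred 336 bp inside the gene. Smyd2 had folds of 3.50 and 4.16 at chromosome 1, 189920842 to 189923597, the widest of the 6 peaks at 2756 bp. The related genes Smyd1 and Smyd3, with Setd5 and Kmt2e, had no peak at a start. Of the 5 PRDM factors, DNA-binding proteins with a SET-like domain, Prdm16 lay under a reproducible peak of 4175 bp at chromosome 4, 154633902 to 154638076, with folds of 3.13 and 5.14. The authors named that peak for the non-coding gene 5930403L14Rik, and it ranked 86th in width of 2289. Prdm1 (2.96) and Prdm2 (3.43) had a peak in replicate 2 alone, and Prdm8 and Prdm14, the latter a regulator of germ cell specification, had none at a start.

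Jmjd1c, a JmjC protein of the H3K9 demethylase family whose loss depletes germ cells in mice, was the 1 eraser with a reproducible peak. Its folds were 3.91 and 4.10 at chromosome 10, 67126607 to 67127625, centred 28 bp inside the gene. A second reproducible peak, at 67095272 to 67097855 on the same chromosome, covered the outermost start of the Jmjd1c gene with folds of 3.08 and 5.74. The authors named it for Reep3. Jmjd1c thus had a pair of separate reproducible peaks over its annotated starts. Counting every start near a reproducible peak, whichever gene the authors named, gave 9 of 48 members (18.8%), against 11.9% of all genes, with Nsd2, Ash1l and Prdm16 added to the 6.

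**Figure D1:**
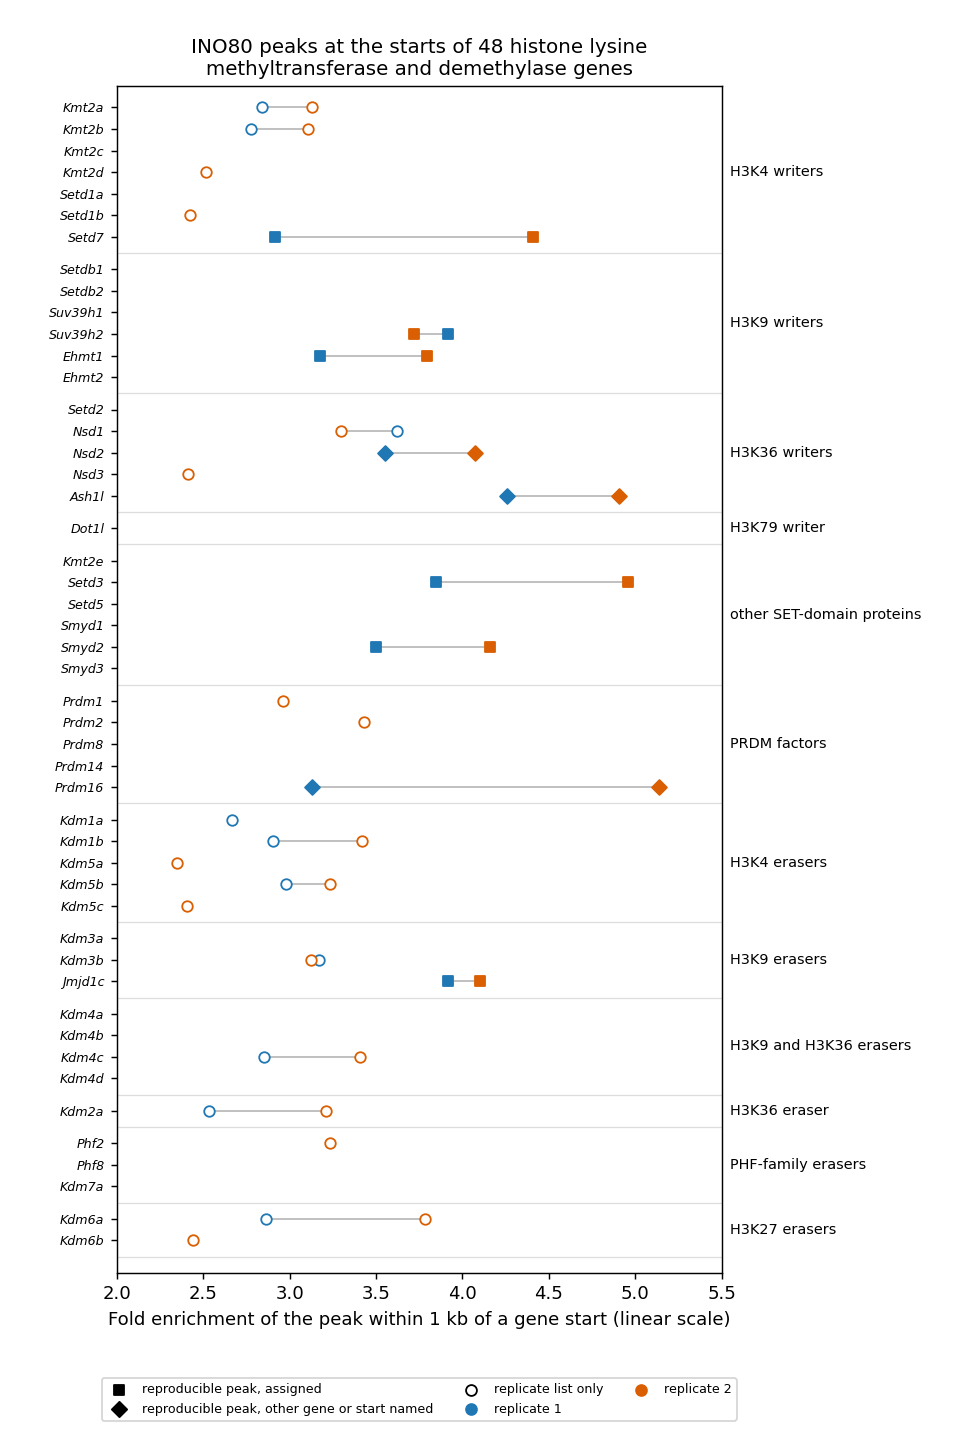
Fold enrichment (linear scale) of the INO80 peak within 1 kb of a start of each of the 48 genes, in replicate 1 (blue) and replicate 2 (orange), grouped by role and target residue. Squares mark reproducible peaks assigned to the gene (6 genes), diamonds reproducible peaks that the authors named for another gene or start (3 genes) and open circles peaks of the replicates' own lists, and an empty row is a gene with no peak there. Where the strand is not given, either end of the gene served as a start. For Jmjd1c the peak assigned to it is drawn, and the one named for Reep3 over its outermost start (3.08 and 5.74) is left out. Eraser values drawn run from 2.35 at Kdm5a to 4.10 at Jmjd1c, and the highest value drawn is 5.14 at Prdm16.

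The replicates' own lists held many more members. A peak lay within 1 kb of a gene start in 19 of 48 members (39.6%) in replicate 1 and in 27 (56.2%) in replicate 2, against 20.9% and 28.8% of all protein-coding genes. In both lists it was 18 members (37.5%), against 18.9% of all genes, and in all 18 the replicates' peaks overlapped. Of these 18, 9 (50%) lay near a reproducible peak, against 61.1% of all genes with a peak in both lists. For the 15 members whose strand the sources do not give, either end of the gene was used as the start. Among the 33 with a known start, 12 (36.4%) had a peak in both lists, against 19.0% of all such genes. These shares were not matched for CpG dinucleotides, with a median of 26 in these 33 promoters against 13 over all such genes. Shares by CpG count are given below.

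Writers and erasers were also counted apart in these lists. In replicate 1 the share was 11 of 30 writers (36.7%) and 8 of 18 erasers (44.4%), and in replicate 2 it was 16 writers (53.3%) and 11 erasers (61.1%). In both lists the shares were 11 of 30 (36.7%) and 7 of 18 (38.9%). Erasers thus had the higher share by a small margin, the reverse of the reproducible set. With q at or below 0.001 in both replicates the order turned back, at 9 of 30 writers (30%) and 3 of 18 erasers (16.7%), against 13.2% of all genes. No test of the difference was run. By target residue, a peak in both lists was found for 3 of 7 H3K4 writers and 2 of 5 H3K4 erasers. For H3K9 it was 2 of 6 writers and 2 of 3 erasers of the Kdm3 family, and 1 of 4 erasers of the Kdm4 family, which act on H3K9 and H3K36. For H3K36 it was 3 of 5 writers and the 1 eraser listed, Kdm2a. It was 1 of 2 H3K27 erasers, 0 of 3 erasers of the PHF family (Kdm7a, Phf2 and Phf8) and 0 of 1 H3K79 writer. With groups of 1 to 7 genes, no order of residues was read from these shares.

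The eraser peaks outside the reproducible set were weak but present in both libraries at 6 genes. Kdm6a, the X-linked H3K27 demethylase UTX, had folds of 2.86 and 3.78. Kdm1b, an H3K4 demethylase active in the germ line of female mice, had 2.90 and 3.42, and Kdm4c had 2.85 and 3.41 at a start within its gene. Kdm5b, another H3K4 demethylase, had folds of 2.98 and 3.23. Kdm2a (H3K36) had 2.53 and 3.21, and Kdm3b, a relative of Jmjd1c, had 3.17 and 3.12. Their folds overlapped those of the occupied genes in replicate 1, where the occupied genes began at 2.91, and in replicate 2, where these began at 3.72, Kdm6a alone reached that level.

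Peaks in 1 list alone were found for 10 members, 9 of them in replicate 2, the list with more peaks. The exception was Kdm1a, the H3K4 demethylase LSD1, with a fold of 2.66 in replicate 1. In replicate 2 alone, the erasers Kdm5a (2.35), Kdm5c (2.41), Kdm6b (2.44) and Phf2 (3.23) joined the 5 writers already named. The Kdm6b peak lay 880 bp from an end of the gene that may not be its start, since its strand is not given. Of all genes, 20.9% had a peak near a start in replicate 1 and 28.8% in replicate 2, lower shares than among members. Of 21887 genes, 4569 had such a peak in replicate 1, 6306 in replicate 2 and 4144 in both lists. Most genes thus had a peak in neither list, whereas most members had one in at least 1 list. No peak lay near a start of 20 members, 14 writers and 6 erasers. Those erasers were Kdm3a, a demethylase of spermatid maturation, Kdm4a, Kdm4b, the testis-enriched Kdm4d, Kdm7a and Phf8.

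Members in both lists but outside the reproducible set sat at the low end of fold. Of these 9 genes, 7 lay under the tenth percentile of reproducible promoter peaks in both replicates (3.06 in replicate 1 and 3.93 in replicate 2). The other two, Nsd1 and Kdm3b, lay under it in replicate 2. These genes were set apart because their peaks are not in the reproducible set, and they were compared with peaks that are. The same was not counted for other genes, so the low folds are not a result particular to the members.

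**Figure D2:**
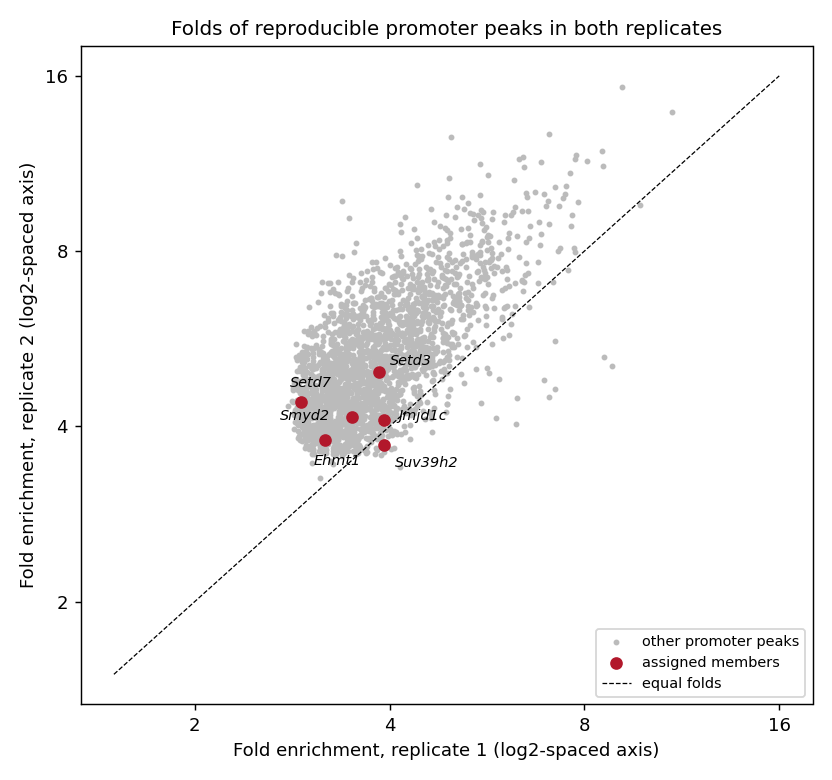
Fold enrichment in replicate 1 (horizontal) and replicate 2 (vertical), on log2-spaced axes, of 2289 reproducible promoter peaks with a peak in both lists (grey) and of the 6 occupied members (red). The members lie below the median peak along the replicate 2 axis and on both sides of it along the replicate 1 axis. Suv39h2 lies under the dashed line of equal folds.

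In replicate 2 the peaks of the 6 occupied members lay below the median fold of promoter peaks, with Setd3 highest at rank 1207 of 2289. In replicate 1 they lay on both sides of the median, from Suv39h2 at rank 894 to Setd7 at rank 2239. Their median folds were 3.67 and 4.13, against 3.70 and 5.03 over the promoter peaks, and 5 of the 6 had a mean fold below that of the median promoter peak. Setd3 ranked highest of them, 1109th of 2289 by mean fold, and Ehmt1 lowest, 2191st. Fold was higher in replicate 2 for 5 of the 6 and for 96.3% of promoter peaks. Width ran from 811 bp at Ehmt1 to 2756 bp at Smyd2, with a median of 1524 bp, and the median over 2297 promoter peaks was 1726 bp. All 6 peak centres lay inside the gene, 28 to 408 bp past the TSS, and so did 77.1% of all promoter peak centres.

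**Figure D3:**
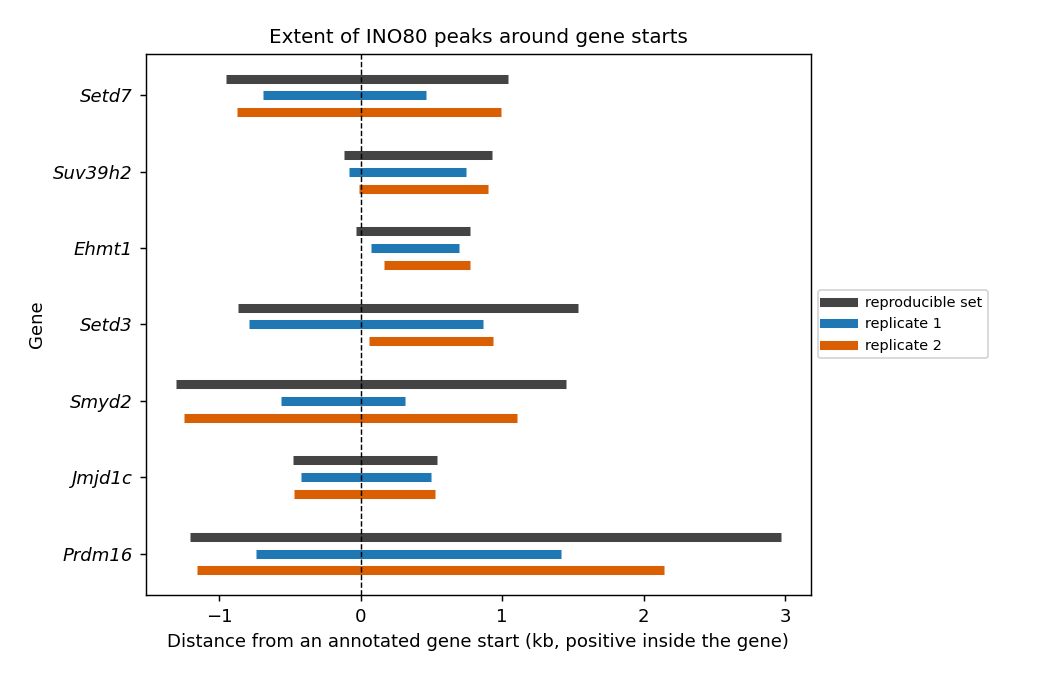
Extent of the reproducible peak (dark grey) and of the peak in replicate 1 (blue) and replicate 2 (orange) around an annotated gene start (dashed line, distance in kb, positive inside the gene) for the 6 occupied members and Prdm16. Setd7, Suv39h2, Smyd2, Jmjd1c and Prdm16 peaks straddle the start drawn in both replicates, the Setd3 peak does so in replicate 1 alone, and both replicate peaks of Ehmt1 lie inside the gene.

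The promoter table held 33 of the 48 members. In the 300 bases around the most upstream start listed, members had a median of 26 CpG dinucleotides, against 13 over 17492 protein-coding genes and 25 over those with an assigned reproducible peak. The 6 occupied members ranged from 21 at Setd7 to 47 at Jmjd1c, with a median of 37. The genes were divided into 4 bins by CpG count. In the top bin, of 25 or more, 5 of 18 members and 20.9% of all genes had an assigned reproducible peak, and 7 of the 18 members and 40% of all genes had a peak in both lists. In the bin of 14 to 24 it was 1 of 9 members against 12.7%, and 4 of 9 against 23.6% for both lists. In the bin of 5 to 13, 0 of 3 members had either, against 5.62% and 11.9%, and in the lowest bin, of 0 to 4, 0 of 3 were occupied against 1% and 1 of 3, Kdm4c, had a peak in both lists against 2.43%. With 3 to 18 members a bin, no difference from all genes was read from these counts.

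CpG count did not order the members by peak. The 4 CpG-richest promoters, of Kdm7a (65), Phf2 (63), Kmt2c (56) and Dot1l (49), had no peak in the reproducible set, and of these Phf2 alone had a peak near its start, in replicate 2. Kdm4c has 0 CpG at its upstream start and 28 at the inner start where both replicates placed the peak. Setd5, with 1 CpG, is listed in the table by an inner start.

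**Figure D4:**
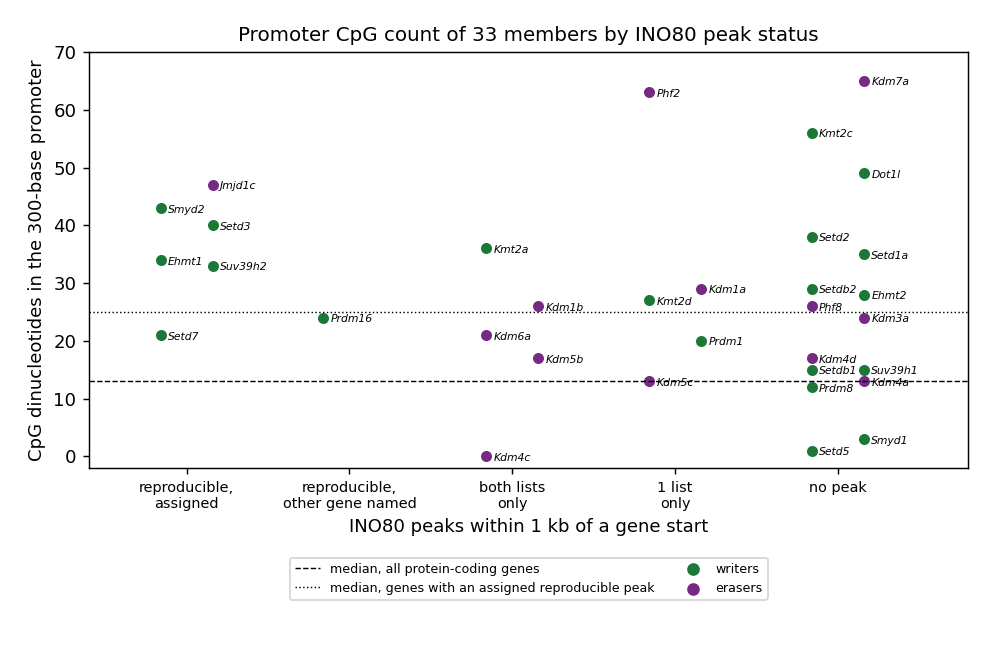
CpG dinucleotides in the 300-base promoter (vertical) of the 33 members in the promoter table, by INO80 peak status within 1 kb of a gene start (horizontal), with writers in green and erasers in purple. Dashed and dotted lines are the medians of all protein-coding genes (13) and of genes with an assigned reproducible peak (25). The occupied members lie between 21 and 47, and genes with no peak span 1 to 65.

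The GC box GGGCGG was found in 22 of the 33 member promoters (66.7%), in 46.3% of protein-coding promoters and in 73.4% of those with an assigned reproducible peak. It was in 5 of the 6 occupied promoters. The YY1 core AANATGGC, a motif of a factor that binds the INO80 complex, was in 6 of 33 (18.2%) and in 6.65% of protein-coding promoters. Genes with an assigned reproducible peak held it less often (4.39%) than genes without (6.9%). Among members it was in 2 of 12 with a peak in both lists (16.7%) and 4 of 21 others (19%). It was in 1 of the 6 occupied promoters, that of Suv39h2, outside the 250 bases printed. CCAAT was in 14 of 33 (42.4%) against 39.2%, CACGTG in 2 (6.06%) against 7.91%, TGACGTCA in 2 (6.06%) against 2.33%, the NRF1 site in 0 against 1.33% and TATAAA in 1 (3.03%) against 13.3%. Motifs were counted on both strands, and a match describes letters, not binding.

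Genes that work with these enzymes, and further SET, JmjC and PRDM genes, were counted by the same rule. Of 62 listed partner and related genes, 9 (14.5%) had an assigned reproducible peak within 1 kb, against the same 9.93% of all genes. A peak near a start in both replicates' lists was found for 22 (35.5%), against 18.9%. The 24 further genes, which are not partners, gave 6 of the 9 and 14 of the 22. The pooled shares are therefore not those of the partners. Of the 14 COMPASS and MLL partners of the H3K4 writers, 0 had an assigned reproducible peak and 0 a peak in both lists. The counts were 0 and 1 for the 9 H3K9 and HP1 partners, and 0 and 2 for the 6 partners of Dot1l. Of the 9 genes of the LSD1 and CoREST complexes, which act with Kdm1a, 3 had an assigned reproducible peak and 5 a peak in both lists. These were Rcor2, a corepressor subunit (folds 4.30 and 6.30), the deacetylase gene Hdac2 (2.98 and 3.93) and Gse1, with a peak at each of 2 starts (4.67 and 6.60 at the stronger).

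Among 24 further SET, JmjC and PRDM genes, 6 (25%) had an assigned reproducible peak and 14 (58.3%) a peak in both lists. Both shares were above those of all genes (9.93% and 18.9%) and of the 48 members (12.5% and 37.5%). Setd6, a lysine methyltransferase with non-histone substrates, had folds of 5.80 and 7.34, above every peak at a start of the 48 members in both replicates. Riox1, a JmjC oxygenase, had 4.67 and 5.46, and Kmt5b, which methylates H4K20, had 2.88 and 5.25. The PRDM genes Prdm13 (4.17 and 5.46), Prdm15 (3.16 and 3.79) and Mecom (4.06 and 3.90) completed them.

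The authors' deposited table of functional terms groups several of these genes. Its term for peptidyl-lysine monomethylation holds 5 genes near reproducible peaks of 8 in the background, Setd7, Ehmt1, Setd3, Smyd2 and Setd6 (fold 5.30, p = 0.00911, adjusted p = 0.148, the authors' deposited table). The term for dimethylation holds the first 4 of these, of 5 in the background (fold 6.78, adjusted p = 0.197, the authors' deposited table). The SET domain term holds 11 genes of 50 (fold 1.98, adjusted p = 0.633, the authors' deposited table), with Suv39h2 added among the members. None passed after adjustment, and the genes of these terms were taken from the same peaks.

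The 4 X-linked members, Suv39h1, Kdm5c, Kdm6a and Phf8, had no reproducible peak. Kdm6a had a peak in both lists and Kdm5c in replicate 2. Over all genes, an assigned reproducible peak within 1 kb was found at 1.24% of 966 X-linked and 10.5% of autosomal genes, and a start near a peak in both lists at 3.21% and 19.9%. The animals were male with a single X, and the sources used here do not say whether the peak caller allowed for that.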

How the data were processed

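INO80 ChIP-seq was read from 2 replicates with 2 inputs (GRCm38). Tools in the submitters' processing notes, listed without roles or settings, are MACS2 2.2.7.1, deepTools 3.4.3, SAMtools 1.11, Picard 2.21.2, BWA and fastp. Read numbers were deposited rounded. Each replicate's deposited peak list gives a fold ratio, a −log10 p, a −log10 q and a score per peak, and which control was used is not given in the sources read. The deposited reproducible set (IDR below 0.05 per its title) holds positions, nearest gene and distance, without signal, so folds are those of the strongest overlapping peak (at least 1 bp) in each replicate. Its coordinates are printed as deposited. The deposited term table gives p-values and fold per term.

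Occupied genes are those to which the authors assigned a reproducible peak with its centre at most 1 kb from the TSS. In the replicates' lists a peak had to lie within 1 kb of a start in RefSeq GRCm38.p6. Starts came from the RefSeq promoter table and the outer 5′ end of the gene, or from either end where strand was not given. The table held 17492 of the 21887 genes. Every member with a reproducible peak was named, as were those in both lists and, of the partner and related genes, those occupied. No test was run, as 2 replicates give 1 peak set and genes are not replicates. The members and lists were chosen with earlier results of these data known. Gene counting was tested on simulated peaks with Python 3.11.15 and pandas 2.3.3. Alternatives changed the TSS window, gene assignment, peak list, q limit and overlap.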

Additional observations from a re-analysis of the deposited data

How the results depend on the processing

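The count of 6 occupied members of 48 stayed between 6 and 9 under the following rules, while the share of all genes moved. It was 6 with a TSS window of 500 bp (7.69% of all genes), 6 with 5 kb (11%) and 7 at any distance (11.8%). It was 6 with q at or below 0.001 in both replicates (9.39%). With every gene start near a reproducible peak counted it was 9 (11.9%). Counting every start raised occupied writers from 5 to 8 of 30, by Nsd2, Ash1l and Prdm16, and left erasers at 1 of 18. Leaving out the writers without a single residue, a choice made after seeing the data, left 3 of 19. From 1 replicate's own list, the counts ran from 19 to 27 for members, 11 to 16 for writers and 8 to 11 for erasers. For the 62 partner and related genes the count was 27 in both cases. These counts change both the peak list and the rule, from the authors' assignment to any gene start within 1 kb, and the shares of all genes were 20.9% and 28.8%. The 18 members in both lists (18.9% of all genes) became 12 at q 0.001 (13.2%), 20 with a 5 kb window (21.4%), 20 over the whole gene (21.6%) and 12 of 33 with known strand (19% of such genes, added after seeing the data). Median fold of the occupied members stayed between 3.67 and 4.13. At 50% coverage Smyd2 in replicate 1 and Setd3 in replicate 2 gave no value. No paired analysis was possible because no result came from a test. Folds have no counting interval, since peak reads were not used here.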

Other observations

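Some INO80 peaks lay beside or within member genes without touching a start. A reproducible peak with folds of 5.56 and 8.28 lay past the far end of Kdm4a, at chromosome 4, 118133888 to 118135425, in the 5' UTR of the sialyltransferase gene St3gal3, and ranked 96th of 2289 by mean fold. Beyond the far end of Kmt2a, a reproducible peak with folds of 3.55 and 4.32 was named for Tmem25. Inside the far part of Prdm8, 3962 bp past the nearest start listed, lay a reproducible peak with folds of 3.43 and 4.71 that the authors named for A730035I17Rik. In replicate 2 alone, peaks lay inside Smyd1 (fold 2.49) and beyond the far end of Dot1l (2.56).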
